A study of Mus musculus with 8 samples.

Results

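The expression of 8 marker genes of CA1 pyramidal neurons was examined in the mouse hippocampus after viral overexpression of miR-708-5p. The genes, Wfs1, Fibcd1, Pou3f1, Spink8, Mpped1, Man1a, Ccn3 and Gpr161, were chosen by name as genes enriched in CA1. They are 8 of the 40659 genes in the deposited count table. All 8 passed the filter on low counts, which kept 17252 genes.

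PolyA-RNA sequencing was performed on whole hippocampi of 8 male C57BL/6JRj mice, 4 in the hpCTL group and 4 in the hp708 group. The 2 groups received recombinant adeno-associated viruses (rAAV) injected stereotactically into the dorsal and the ventral hippocampus at postnatal week 7 to 8. The human synapsin promoter, which is active in neurons, drives EGFP, and in hp708 a hairpin placed in the 3'UTR of EGFP gives rise to miR-708-5p, while hpCTL carries a control hairpin. Tissue was taken 4 weeks after surgery, and the labels give its stage as postnatal week 12 to 13. All mice were therefore injected and carried a virus, and no uninjected hippocampus was measured. The comparison asks whether the transcriptome of the hippocampus differs when miR-708-5p is overexpressed. Total counts were between 22606824 and 28462428 per library. Mir708, the gene of the microRNA precursor, had 0 counts throughout, and these polyA libraries therefore give no measure of the overexpression.

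The label of 1 mouse conflicts between sources. Animal 1602 is hp708 replicate 1 by its label, whereas a source data sheet of the study assigns it to hpCTL. It was kept in the hp708 group, as labelled, and the group differences of the markers and their correlations with each other are given with and without it.

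The pyramidal neurons of CA1 form the main output layer of the hippocampus proper. They receive input from CA3 through the Schaffer collaterals and project to the subiculum and the entorhinal cortex. CA1, CA2, CA3 and the dentate gyrus can be told apart in the adult hippocampus by the genes that their principal neurons express, and the markers of CA1 belong to several functional classes. Pou3f1 encodes a POU-domain transcription factor. Wfs1 encodes wolframin, a membrane protein of the endoplasmic reticulum involved in calcium homeostasis, and Man1a encodes a Golgi mannosidase that trims N-linked glycans. Fibcd1 encodes a transmembrane receptor with a fibrinogen-like domain that binds acetylated sugars, and Gpr161 an orphan G protein-coupled receptor of the primary cilium that restrains hedgehog signalling. Ccn3 and Spink8 encode secreted proteins, a matricellular protein and a Kazal-type serine peptidase inhibitor. Mpped1 encodes a protein with a metallophosphoesterase domain. Several of these genes are also expressed in neurons outside CA1, or in other cells. In bulk tissue, fewer cells of a type and less RNA per cell cannot be told apart.

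The sequences that link the overexpressed microRNA to the markers are its seed and the matching stretches in their 3'UTRs. MicroRNAs recognise target transcripts mainly through bases 2 to 8, the seed, which is in capitals in the mature mouse sequence from RefSeq, and the complementary heptamer AGCTCCT is in capitals in the sites.
miR-708-5p: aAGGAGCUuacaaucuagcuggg
Fibcd1 site: gggagtgtcatctccAGCTCCTg
Man1a site: cgacacagcaaggggAGCTCCTg
A canonical site (8mer, 7mer-m8 or 7mer-A1) was present in the 3'UTR of these 2 genes, 25% of the 8, and in 22.8% of the 14793 tested genes with an annotated 3'UTR. The Fibcd1 site lies at chr2:31703935-31703957 on the minus strand of GRCm39, 2508 bases into a 3'UTR of 3502 bases. The Man1a site lies at chr10:53782756-53782778, also on the minus strand, 770 bases into a 3'UTR of 2653 bases. Both are 7mer-m8 sites, and in each 11 positions of the microRNA could form Watson-Crick pairs when aligned without gaps. Pairs of G with U were not counted. No canonical site was found for Wfs1, Pou3f1, Spink8, Mpped1, Ccn3 or Gpr161, with 3'UTRs between 237 bases in Spink8 and 5046 bases in Gpr161. A match is a description of the sequence, and binding was not measured here.

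On GRCm39, Gpr161 (ENSMUSG00000040836) lies on chromosome 1 from 165108568 to 165154316, Fibcd1 (ENSMUSG00000026841) on chromosome 2 from 31702948 to 31736233, and the single-exon gene Pou3f1 (ENSMUSG00000090125) on chromosome 4 from 124550600 to 124554448. Wfs1 (ENSMUSG00000039474) lies on chromosome 5 from 37106176 to 37153872, Spink8 (ENSMUSG00000050074) on chromosome 9 from 109641348 to 109655706, and Man1a (ENSMUSG00000003746) on chromosome 10 from 53780880 to 53952741. Ccn3 (ENSMUSG00000037362) and Mpped1 (ENSMUSG00000041708) are both on chromosome 15, from 54609012 to 54620154 and from 83656262 to 83742695. The strand setting of the counting is not given in the sources used here, so reads from a gene and an antisense partner cannot be told apart. Exons of a long non-coding RNA on the opposite strand cover 8.57% of the exon bases of Pou3f1 (Gm2164), 1.82% of those of Mpped1 (Gm41370) and 1.52% of those of Man1a (Gm16998).

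All 8 markers were expressed in every library, with between 356 counts (Spink8 in hpCTL replicate 2) and 6630 counts (Mpped1 in hp708 replicate 1). To compare genes with each other, CPM (counts scaled to the total of the library) were divided by exon length in kilobases (RPKM). Fibcd1 was the highest at 36.8 RPKM over the 8 libraries, followed by Wfs1 at 31.3, Mpped1 at 25.6, Ccn3 at 22.9 and Spink8 at 22.8 RPKM. Gpr161 at 13.0 RPKM, Pou3f1 at 11.6 RPKM and Man1a at 8.38 RPKM formed the lower end. Of neighbours in this order, only Spink8 and Gpr161 had ranges that did not overlap, 18.7 to 33.4 RPKM against 10.6 to 14.7 RPKM. All others overlapped over the 8 libraries, and Ccn3 had the widest range relative to its level, from 13.5 to 28.8 RPKM. Among the 17162 tested genes with a known length, Man1a lay above 67.3% and Fibcd1 above 93.2%.

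**Figure D1:**
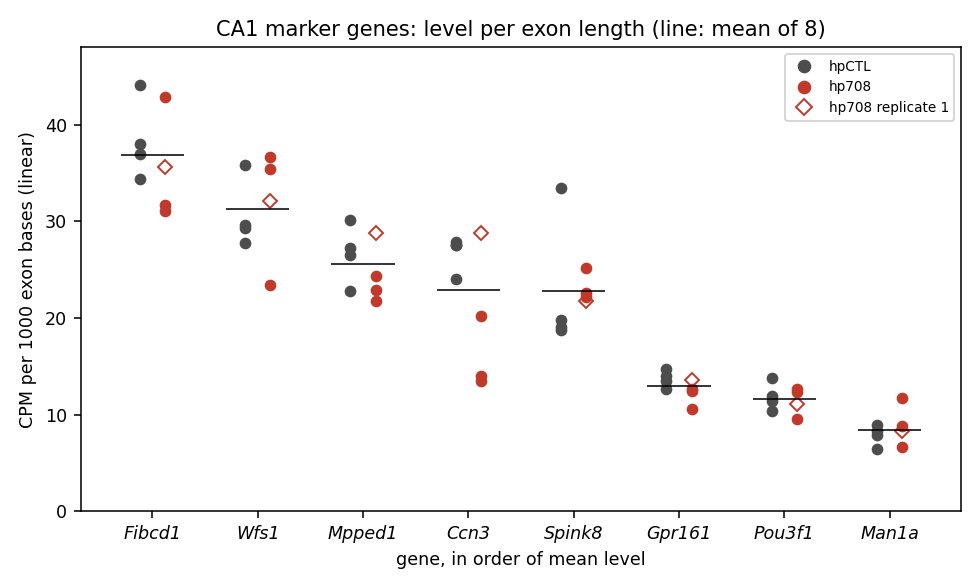
Level of each CA1 marker gene in each library, as CPM per 1000 exon bases on a linear axis, with genes in order of their mean (line). Grey points are hpCTL, red points hp708 and the open diamond hp708 replicate 1; Fibcd1 is highest with a mean of 36.8 and Man1a lowest with 8.38.

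None of the 8 CA1 markers differed between hp708 and hpCTL at a false discovery rate (FDR) below 0.05. The test was the quasi-likelihood test of edgeR, with 3 surrogate variables as estimated covariates for unknown variation, and it called 0.0058% of all tested genes, namely 1 gene, the immunoglobulin segment Igkj1, which is named after its values were seen. Log2 fold changes, given throughout as hp708 minus hpCTL, were negative for 5 of the 8 markers (62.5%) and for 53.2% of all tested genes. Their median was -0.05 against -0.01 for all tested genes. For 6 of the 8 markers the 95% confidence interval stayed within 0.5 of 0 on the log2 scale. The exceptions were Man1a, with an interval from -0.31 to 0.51, and Ccn3, with an interval from -0.62 to -0.13. Without hp708 replicate 1, 4 of the 8 log2 fold changes were negative, the median was -0.04 and again none was called. Without surrogate variables as well, 5 were negative, with a median of -0.08. No marker had groups that lay fully apart in CPM, which 1.51% of all tested genes had.

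**Figure D2:**
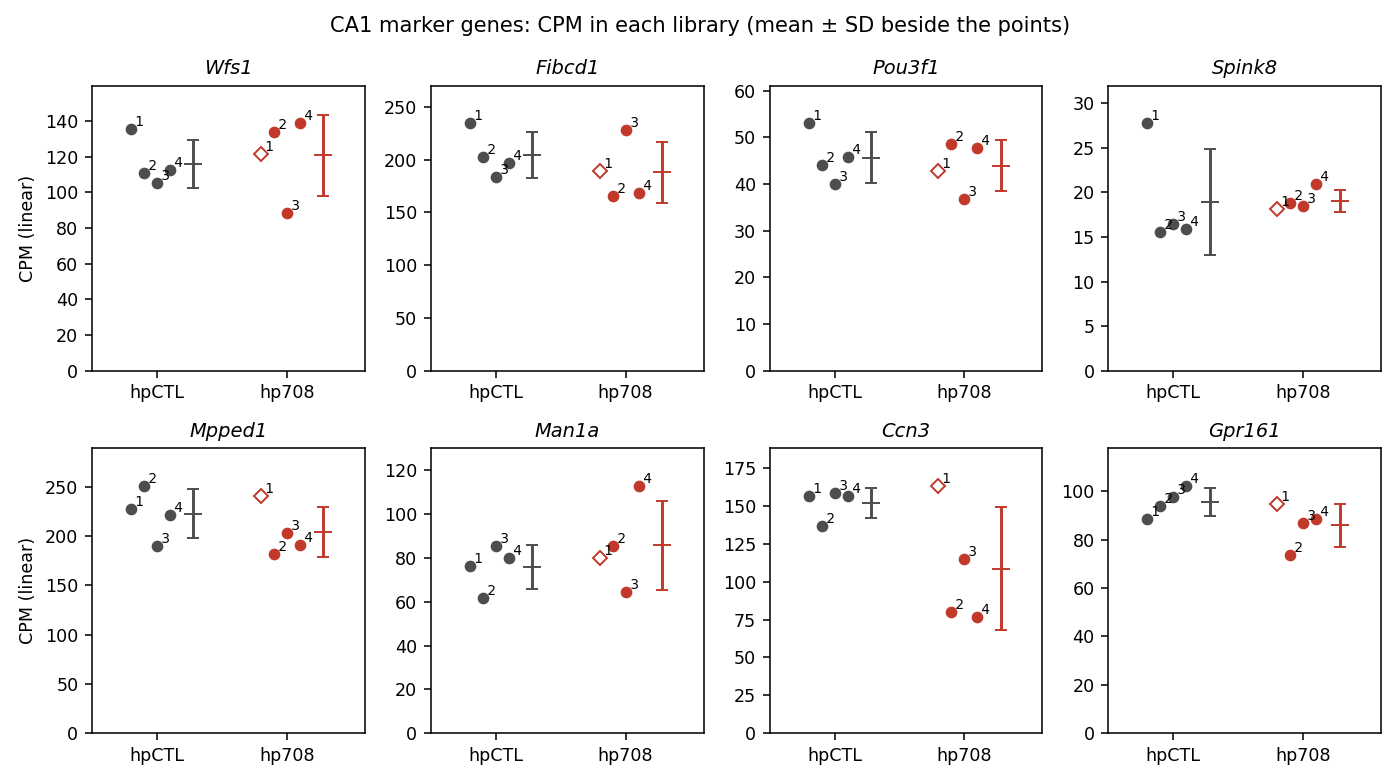
CPM of each CA1 marker gene on a linear axis from 0, with the replicate number beside each point and the mean ± SD of the group at its right (n = 4). The open diamond is hp708 replicate 1, which had 163 CPM of Ccn3, above all other libraries, while hp708 replicates 2 to 4 had 79.6, 115 and 76.4 CPM, below all hpCTL libraries.

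Ccn3 showed the largest difference among the markers. It had 156, 137, 158 and 156 CPM in hpCTL replicates 1 to 4 and 163, 79.6, 115 and 76.4 CPM in hp708 replicates 1 to 4. The hpCTL libraries were close together, hp708 replicates 2 to 4 lay below all of them, and hp708 replicate 1 lay above all of them. At least 3 hp708 libraries below all hpCTL libraries were seen in 6.86% of all tested genes. The group means were 152 ± 10.2 CPM in hpCTL and 109 ± 40.4 CPM in hp708 (SD, n = 4). The log2 fold change was -0.38 (standard error, SE, 0.10), a fold of 0.769 with a 95% confidence interval of 0.649 to 0.912. With an unadjusted p of 0.00816 and an FDR of 0.509 in edgeR's quasi-likelihood test, Ccn3 was not called.

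Without surrogate variables the log2 fold change of Ccn3 was -0.48 (SE 0.21, FDR 0.999, edgeR), and it was then the only marker with an unadjusted p below 0.05 and a lower level, against 0.951% of all tested genes. Without hp708 replicate 1 it was -0.81 (SE 0.12, FDR 0.0558, edgeR with 3 surrogate variables), where 0.247% of all tested genes were called lower. With 3 surrogate variables it was closer to 0 without hpCTL replicate 3, at -0.21 (FDR 1.00, edgeR), and without hp708 replicate 4, at -0.22 (FDR 0.481, edgeR). Without both hp708 replicate 1 and the surrogate variables it was -0.75 (SE 0.14, FDR 0.720, edgeR). In 1 setting chosen after seeing the data, with surrogate variables from TMM-scaled counts and without hp708 replicate 1, Ccn3 passed the threshold at a log2 fold change of -0.73 (FDR 0.0476, edgeR), and 0.201% of all tested genes were called lower. An exact two-sided permutation of the 8 libraries gave p = 0.143 for Ccn3, and p = 0.0286 without hp708 replicate 1, which is the smallest value that either design allows. Neither change alone led to a call of Ccn3, with an FDR of 0.0558 without hp708 replicate 1 and of 0.204 with surrogate variables from TMM-scaled counts and all libraries (edgeR).

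Markers of the subiculum, the region that CA1 projects to and borders, moved with Ccn3 over the libraries. The mean log2 CPM of 6 such genes, 5 of them tested, was 2.88, 3.39, 3.19 and 3.64 in hpCTL replicates 1 to 4 and 3.45, 2.67, 2.46 and 2.00 in hp708 replicates 1 to 4. As for Ccn3, hp708 replicates 2 to 4 lay below all hpCTL libraries, while hp708 replicate 1 lay within their range for this list and above it for Ccn3. The Pearson correlation with Ccn3 was 0.816 over 8 libraries and 0.790 without hp708 replicate 1. Other lists ran against Ccn3, with correlations of -0.748 for CA2, -0.611 for oligodendrocytes, -0.594 for CA3 and -0.585 for astrocytes over 8 libraries, and of -0.736, -0.573, -0.576 and -0.606 without hp708 replicate 1. All 5 tested subiculum genes had negative log2 fold changes (53.2% of all tested genes), 3 of them with an unadjusted p below 0.05 (4.87% of all tested genes were lower with such a p), and none was called. Without hp708 replicate 1 their median log2 fold change was -1.25 in place of -0.73, and 2 of them were called, where 0.247% of all tested genes were called lower, namely Tshz2 at -1.57 (FDR 0.0239, edgeR) and Slc17a6, the vesicular glutamate transporter VGLUT2, at -1.25 (FDR 0.0262, edgeR). The fit of the same 7 libraries without surrogate variables called 0 of 17425 genes, with 596 at an unadjusted p below 0.05 (edgeR), so both calls were lost there. The part of these lists in the level of Ccn3 was not tested.

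Gpr161 had the next lowest unadjusted p. It had 88.3, 93.8, 97.5 and 102 CPM in hpCTL replicates 1 to 4 and 94.5, 73.7, 86.7 and 88.3 CPM in hp708 replicates 1 to 4. Only replicates 2 and 3 of hp708 lay below the hpCTL range, the groups overlapping in the others. The log2 fold change was -0.13 (SE 0.05, FDR 0.613, edgeR), and without hp708 replicate 1 it was -0.22 (SE 0.06, FDR 0.212, edgeR). Gpr161 and Ccn3 were the 2 of 8 markers with an unadjusted p below 0.05 and a lower level, against 4.87% of all tested genes, and no marker had such a p and a higher level. With hp708 replicate 1 left out, 3 markers had such a p and a lower level (Ccn3, Gpr161 and Mpped1, against 6.72% of all tested genes) and 2 a higher level (Man1a and Spink8, against 5.44%). Without surrogate variables as well, 2 markers had such a p and a lower level (Ccn3 and Gpr161) and 0 a higher level. In that fit 596 of 17425 genes had such a p in either direction (edgeR). In the exact permutation test Gpr161 had p = 0.143, and p = 0.0571 without hp708 replicate 1.

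The endoplasmic reticulum protein Wfs1 and the transcription factor Pou3f1 had group differences smaller than the spread between mice. Wfs1 had 136, 111, 105 and 112 CPM in hpCTL and 122, 134, 88.7 and 139 CPM in hp708, so that the hp708 libraries held both its lowest and its highest value. Its log2 fold change was 0.04 (SE 0.14, FDR 0.961, edgeR), and 0.18 without hp708 replicate 1 (SE 0.10, FDR 0.564, edgeR). The latter was 0.06 (SE 0.16) without surrogate variables. Pou3f1 had 53.1, 44.0, 39.9 and 45.7 CPM in hpCTL and 42.7, 48.6, 36.8 and 47.6 CPM in hp708. Only hp708 replicate 3 lay outside the hpCTL range of Pou3f1, below it. The log2 fold change of Pou3f1 was -0.06 (SE 0.10, FDR 0.914, edgeR), and with surrogate variables it turned to 0.06 without hp708 replicate 1. Without surrogate variables and hp708 replicate 1 it was -0.04 (SE 0.13).

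The 2 markers with a seed site had estimates of opposite sign. Fibcd1 had 235, 202, 183 and 197 CPM in hpCTL and 190, 165, 228 and 168 CPM in hp708. Replicates 2 and 4 of hp708 lay below the hpCTL range of Fibcd1, and replicate 3 was near its top. Its log2 fold change was -0.05 (SE 0.08, FDR 0.926, edgeR), and -0.14 without hp708 replicate 1 (SE 0.08, FDR 0.527, edgeR). Man1a had 76.2, 62.0, 85.7 and 80.0 CPM in hpCTL and 80.1, 85.3, 64.7 and 113 CPM in hp708. For Man1a only hp708 replicate 4 stood outside the hpCTL range, above it. Its log2 fold change was 0.10 (SE 0.17, FDR 0.926, edgeR), and without hp708 replicate 1 it was 0.33 (SE 0.07, FDR 0.0968, edgeR). Without hp708 replicate 1 and surrogate variables it was 0.21 (SE 0.18).

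Mpped1 had 227, 251, 190 and 221 CPM in hpCTL and 240, 182, 203 and 191 CPM in hp708, with hp708 replicate 2 alone below the hpCTL range. Its log2 fold change was -0.06 (SE 0.08, FDR 0.896, edgeR), and -0.24 (SE 0.09, FDR 0.347, edgeR) without hp708 replicate 1. The peptidase inhibitor Spink8 had 27.8, 15.6, 16.4 and 15.8 CPM in hpCTL and 18.1, 18.8, 18.5 and 20.9 CPM in hp708. The high value of hpCTL replicate 1 set the overlap for Spink8, since the other 3 hpCTL libraries lay below all hp708 libraries. Its log2 fold change was 0.11 (SE 0.11, FDR 0.854, edgeR), and 0.27 without hp708 replicate 1 (SE 0.09, FDR 0.281, edgeR). Without surrogate variables as well it was 0.04 (SE 0.21). The exact permutation p of Spink8 was 0.8286 with all libraries and 0.0286 without hpCTL replicate 1. Leaving out that library takes away the overlap just described, so this p had to be the smallest value possible and decides nothing. Over the 6 markers other than Ccn3 and Gpr161, the exact permutation p lay between 0.371 and 0.8286, and between 0.143 and 0.80 without hp708 replicate 1.

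**Figure D3:**
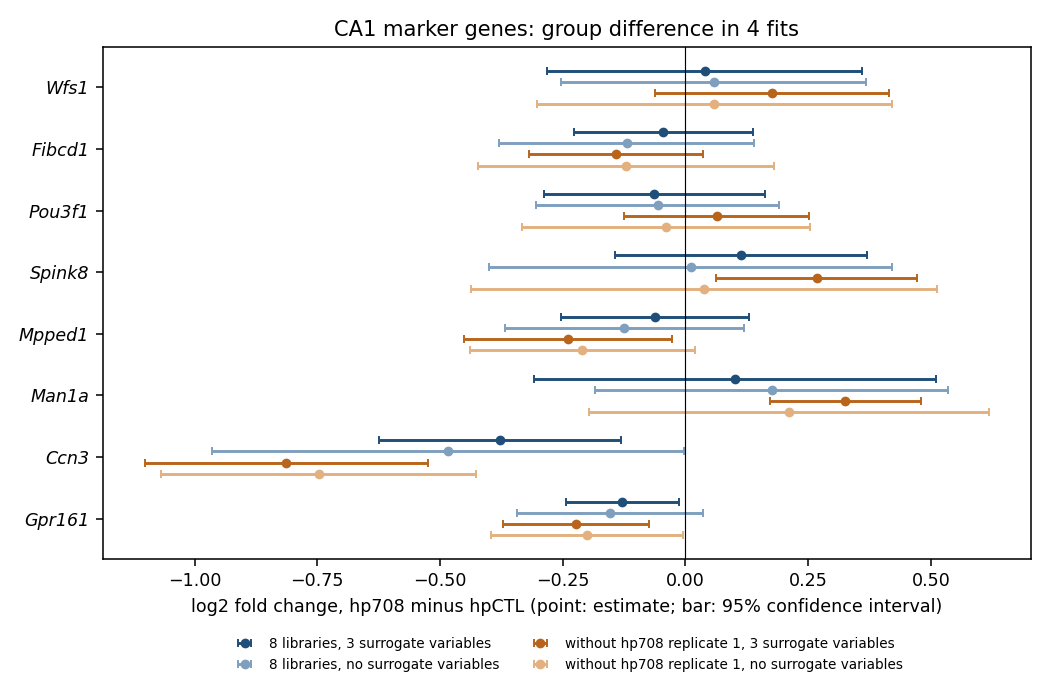
Log2 fold change (hp708 minus hpCTL) of each CA1 marker gene with its 95% confidence interval, in edgeR quasi-likelihood fits with and without surrogate variables and with and without hp708 replicate 1. Ccn3 was below 0 in each of the 4 fits, from -0.81 to -0.38, while Pou3f1 lay on either side of 0.

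The 8 markers did not vary as 1 unit over the mice. Of their 28 pairs, 14 had a Pearson correlation of log2 CPM above 0 over the 8 libraries, with a median of -0.01. Without hp708 replicate 1 there were again 14, with a median of 0.04, and no pair moved by more than 0.10. The highest was 0.901 between Wfs1 and Pou3f1, which were both high in hpCTL replicate 1 and low in hp708 replicate 3. Ccn3 and Gpr161 followed at 0.747, and both had their lowest 2 values among hp708 replicates 2 to 4. The lowest was -0.71 between Fibcd1 and Man1a, the 2 markers with a seed site. Ccn3 correlated with Mpped1 at 0.664 and with Fibcd1 at 0.561 but with Wfs1 at -0.35 and with Man1a at -0.487. These values describe 8 libraries that share normalization and group structure.

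**Figure D4:**
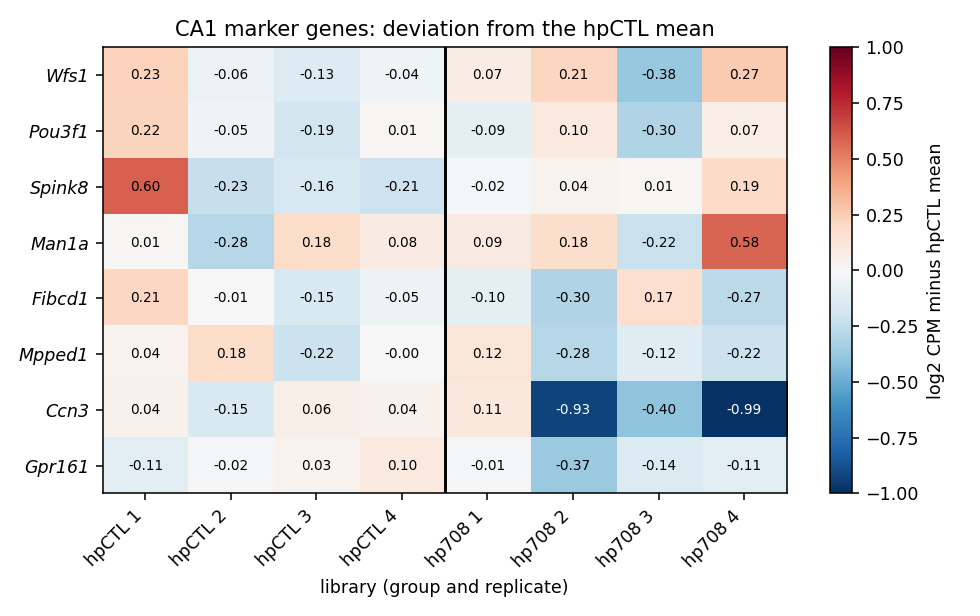
Log2 CPM of each CA1 marker gene in each library minus the mean of the 4 hpCTL libraries, in red above and in blue below that mean. The lowest values are those of Ccn3 in hp708 replicates 4 and 2, -0.99 and -0.93, and the highest is that of Spink8 in hpCTL replicate 1, 0.60.

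The mean log2 CPM of the 8 markers was 6.67, 6.43, 6.44 and 6.50 in hpCTL replicates 1 to 4 and 6.53, 6.34, 6.34 and 6.45 in hp708 replicates 1 to 4. The groups overlapped, and their difference of -0.0955 was smaller than the SD within groups of 0.101. It was -0.13 without hp708 replicate 1 and -0.03 without Ccn3. The mean of 8 interneuron markers followed the profile of the CA1 markers. Their Pearson correlation was 0.936 over 8 libraries and 0.954 without hp708 replicate 1. The interneuron mean lay between 5.73 and 5.98 in hpCTL and between 5.65 and 5.76 in hp708, and its part was not tested. It was highest in hpCTL replicate 1, as was the mean of the CA1 markers, and the correlation without that library was not tested. The mean of 6 general markers of excitatory neurons correlated with that profile at -0.116, or -0.036 without hp708 replicate 1, and its group difference was 0.04. Its genes went both ways. Tbr1, a transcription factor of glutamatergic neurons, had 42.2 to 50.4 CPM in hpCTL and 28.7 to 39.4 CPM in hp708, without overlap (1.51% of all tested genes in either direction), and a log2 fold change of -0.32 (FDR 0.525, edgeR) that was -0.48 and called without hp708 replicate 1 (FDR 0.0276, edgeR), where 0.247% of all tested genes were called lower. This call too was lost without surrogate variables. With all libraries, the log2 fold change of Tbr1 was -0.35 without surrogate variables. Camk2a at 0.22 (FDR 0.478, edgeR) and Nptx1 at 0.16 (FDR 0.549, edgeR) had positive estimates with an unadjusted p below 0.05, as 2.82% of all tested genes had. These 3 genes were named after their values were seen. The surrogate variables took up some of the variation of single markers, since the first correlated with Fibcd1 at 0.856 and the third with Gpr161 at 0.821 over the 8 libraries.

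By a rule of the highest correlation with the mean z-score of the markers among 15481 genes, Tfb1m, Noa1, Ddx28, Slc35b2 and Ext2 had the most similar pattern, with Pearson correlations between 0.951 and 0.970 over 8 libraries. Their FDR was between 0.802 and 0.952 in edgeR's quasi-likelihood test. For Ccn3, chosen for this after its values were seen, Pcdhb6, Enpep, Rspo3, Trmt9b and Primpol were the most similar of 15488 genes, with correlations between 0.974 and 0.992. Rspo3, a secreted activator of Wnt signalling, had 13.7 to 17.2 CPM in hpCTL and 7.52 to 16.8 CPM in hp708. Its log2 fold change was -0.33 (SE 0.15, FDR 0.678, edgeR), the lowest of the 5. The others had -0.32 (Trmt9b), -0.22 (Enpep), -0.21 (Pcdhb6) and -0.09 (Primpol), with an FDR between 0.595 and 0.899 (edgeR).

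A further 12 genes enriched in CA1 were all tested, and none was called. Of these, 5 had negative log2 fold changes (41.7%) and 7 positive, with a median of 0.02. The highest values were 0.26 for Zbtb20, a transcription factor needed for CA1 identity, 0.21 for Hpca, a neuronal calcium sensor, 0.14 for Hunk and 0.11 for Neurod6. Among the lowest were -0.11 for Calb1, the calcium buffer calbindin, -0.10 for Lefty1 and -0.03 for Crym. With hp708 replicate 1 left out, Lefty1 turned to 0.13, Calb1 was at -0.45, Crym at -0.20, Hpca at 0.42, Hunk at 0.33 and Neurod6 at 0.29. Only Zbtb20 had an unadjusted p below 0.05 (0.0110, FDR 0.514, edgeR), where 2.82% of all tested genes had such a p and a higher level. Zbtb20 had 222, 248, 271 and 261 CPM in hpCTL and 244, 276, 379 and 367 CPM in hp708. Here too hp708 replicate 1 lay within the hpCTL range, and hp708 replicates 2 to 4 lay above it. The log2 fold change of Zbtb20 without hp708 replicate 1 was 0.39 (FDR 0.0581, edgeR), and none of the 12 genes was called. Calb1 was lowest in hp708 replicate 4 with 43.9 CPM, against 72.6 to 114 CPM in all other libraries. Hunk was highest in that library with 48.8 CPM, against 28.5 to 34.1 CPM in all others. Counts of whole hippocampi do not show whether the transcripts of these 12 genes came from CA1 or from other cells.

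Relatives of the markers were compared next, and 12 of the 13 genes listed could be tested, all but Ccn6. None was called, and 6 had negative and 6 positive log2 fold changes, with a median of 0.01. The highest estimates were 0.91 for Ccn5 (SE 0.58), 0.15 for Pou3f2, 0.12 for Mpped2 and 0.05 for Man1a2, and the lowest -0.37 for Ccn2 (SE 0.23), -0.04 for Man1c1, -0.04 for Ccn4 and -0.03 for Pou3f3. With hp708 replicate 1 left out these were 1.53 for Ccn5, 0.18 for Pou3f2, 0.36 for Mpped2, 0.02 for Man1a2, -0.12 for Man1c1, -0.06 for Ccn4 and -0.01 for Pou3f3, and none was called. The estimates of Ccn5 rest on 1 library and low counts, with 1.69 CPM in hp708 replicate 4 and 0.219 to 0.469 CPM in all others. In the CCN family of matricellular proteins, Ccn3 was expressed at 22.9 RPKM and Ccn2 at 3.82 RPKM, Ccn1 at 2.59 RPKM, Ccn5 at 0.273 RPKM and Ccn4 at 0.212 RPKM. Ccn2 had 6.60, 17.8, 11.0 and 18.9 CPM in hpCTL and 24.0, 7.09, 4.52 and 7.48 CPM in hp708. As for Ccn3, the highest hp708 value of Ccn2 was in replicate 1, but its hpCTL libraries varied more widely. Its log2 fold change was -1.19 without hp708 replicate 1 (FDR 0.0654, edgeR). Among POU factors of class III, Pou3f1 at 11.6 RPKM was similar in level to Pou3f3 at 12.6 RPKM.

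Lists of markers for the neighbouring fields of the hippocampus were set beside the CA1 markers. For CA3, all 6 genes had positive log2 fold changes with a median of 0.14, where 53.2% of all tested genes had negative ones. An unadjusted p below 0.05 was found for 4 of them, against 2.82% of all tested genes that were higher with such a p, and none was called. For CA2, 4 of 5 genes were positive with a median of 0.21, and for the dentate gyrus 6 of 8 with a median of 0.15. These medians were 0.21 for CA3, 0.21 for CA2 and 0.31 for the dentate gyrus without hp708 replicate 1, and none of the genes was called. The mean log2 CPM of the CA3 list was 5.57 to 5.97 in hpCTL and 5.72 to 6.06 in hp708, and that of the CA1 markers 6.43 to 6.67 and 6.34 to 6.53. The groups overlapped in each of these lists, and the difference between CA1 and CA3 markers in response was not tested.

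**Figure D5:**
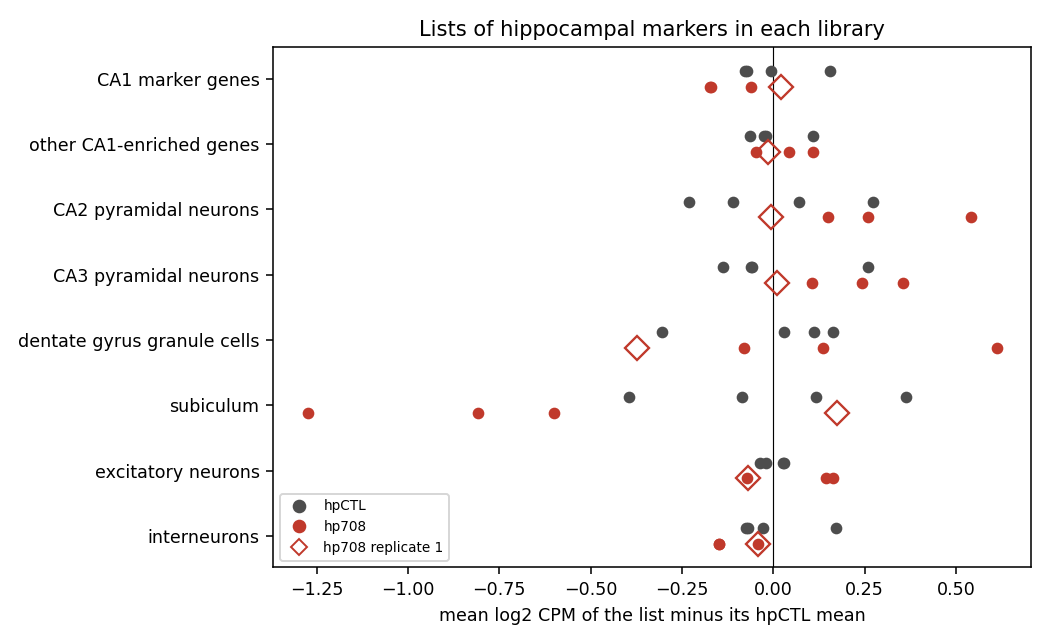
Mean log2 CPM of lists of hippocampal markers in each library, minus the mean of the hpCTL libraries, with hpCTL in grey, hp708 in red and hp708 replicate 1 as an open diamond. The CA1 markers lay between 6.34 and 6.67 in all libraries, and the subiculum list was lowest in hp708 replicates 2 to 4.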

How the data were processed

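PolyA-RNA sequencing counts of whole hippocampi of 4 hpCTL and 4 hp708 mice were used, grouped by their labels. The authors mapped reads to GRCm39 with STAR 2.7.8a and the GENCODE M26 annotation, and deposited raw counts per gene from featureCounts 1.6.4, without normalization. Of 40659 identifiers, 39641 were named from GENCODE M39. The CA1 markers and all lists were chosen with earlier results of these data known.

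Low genes were removed from the deposited counts with filterByExpr, and the rest were fitted with edgeR 4.0.16 in R 4.3.3 (quasi-likelihood test, TMM, 3 surrogate variables from svaseq in sva 3.50.0, Benjamini-Hochberg adjustment over all tested genes). The legend of the study names the quasi-likelihood model and its methods the likelihood ratio test, which was an alternative, as was DESeq2 1.42.0. A prior count of 2 was added for log2 CPM. Standard errors came from the fold change and the test statistic. Single values were compared by exact two-sided permutation of the libraries. Total counts of at least 22606824 per library gave each marker at least 356 counts. Pairs of libraries of a group had a chi-square of 10.0 to 46.2 per degree of freedom, so none was a copy, and log2 CPM correlated between 0.971 and 0.988. The named genes were the 8 markers, the 4 highest and 4 lowest log2 fold changes of each of 2 lists (other CA1-enriched genes, relatives of the markers), and the 5 genes most like the mean of the markers. The value of 1 gene under this rule is not reported here. Exon lengths and 3'UTRs came from GENCODE M39 without its later TAGENE transcripts, and the mature microRNA from RefSeq. The functions were tested on simulated counts.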

Additional observations from a re-analysis of the deposited data

Results flagged for a closer look

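In 4 of 50 groups of 4 libraries examined, 1 library lay far from the other 3 by Dixon's criterion, where chance gives about 1 in 20 groups, or 2.5. Spink8 had 27.8 CPM in hpCTL replicate 1 and 15.6 to 16.4 CPM in the other hpCTL libraries. Ccn3 had 137 CPM in hpCTL replicate 2 and 156 to 158 CPM in the other hpCTL libraries. The mean log2 CPM of the thalamus markers was 3.14 in hp708 replicate 2 and 2.42 to 2.53 in the other hp708 libraries. The mean log2 CPM of the interferon response genes was 4.04 in hpCTL replicate 1 and 5.22 to 5.46 in the other hpCTL libraries.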

How the results depend on the processing

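With all 8 libraries, no alternative called any of the 8 CA1 markers, and the number with a negative log2 fold change was 5 or, with at least 10 counts in every library, 4. The number of all genes called was 1 as reported, 127 with the likelihood ratio test, 96 with DESeq2 and 3 surrogate variables, 2 with DESeq2 without them, 12 without the filter, and 0 without surrogate variables (312 at an unadjusted p below 0.05), with at least 10 counts in every library (907 such genes) or, chosen after seeing the data, with surrogate variables from TMM-scaled counts (2288 such genes). The cause was not tested. Of the log2 fold changes of single markers under these alternatives 71 kept their direction, and Pou3f1 turned to 0.060 with at least 10 counts in every library. The FDR of Ccn3 lay between 0.0892 and 1.00 there.

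Leaving out 1 library, with or without surrogate variables, gave 0 to 56 genes called (56 without hp708 replicate 1), 4 to 7 markers lower in hp708, and 0 markers called. Only without hp708 replicate 1 and with surrogate variables from TMM-scaled counts, a setting chosen after seeing the data, was 1 marker called, Ccn3, among 52 genes, and there Wfs1 turned to -0.012. The difference of the marker mean lay between -0.131 and -0.040, and it was -0.137 relative to the excitatory neuron list. The log2 fold change of Ccn3 ranged from -0.81 to -0.21 and that of Gpr161 from -0.22 to -0.076, so that both kept their sign. It changed sign for the others, from -0.022 to 0.215 for Wfs1, -0.224 to 0.0050 for Fibcd1, -0.116 to 0.064 for Pou3f1, -0.072 to 0.273 for Spink8, -0.239 to 0.021 for Mpped1 and -0.0089 to 0.326 for Man1a. The plain differences of log2 CPM changed sign for Wfs1 (-0.028 to 0.188), Pou3f1 (-0.119 to 0.029) and Spink8 (-0.023 to 0.258). Without hp708 replicate 1 the exact permutation p of Ccn3 was 0.0286 (difference -0.77), and without hpCTL replicate 1 that of Spink8 was 0.0286 (0.26). These p-values are unadjusted and the smallest the design allows, and the FDR of the same libraries in edgeR was 0.0558 for Ccn3 and 0.356 for Spink8. The cause was not tested.

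In the fit with a replicate block and no surrogate variables, 1 gene and 0 markers were called, with 5 markers lower. Same-numbered libraries correlated between -0.0411 and 0.0177 in their deviations from the group means over all tested genes. No pairing by number was seen on that scale, but one that moves few genes would be missed. Spink8 had the fewest counts of the markers, 356 to 778 per library.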

Other observations

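Lists of other cell types and states did not separate the groups, whose ranges of mean log2 CPM overlapped in each. Astrocyte markers lay between 8.08 and 8.20 in hpCTL and between 8.04 and 8.38 in hp708, oligodendrocyte markers between 8.60 and 9.01 and between 8.62 and 9.49, and endothelial markers between 5.15 and 5.43 and between 5.18 and 5.35. Microglia markers lay between 6.46 and 6.83 in hpCTL and between 6.22 and 6.89 in hp708. Of all tested genes 53.2% had negative log2 fold changes, and 4.87% were lower with an unadjusted p below 0.05. All 6 microglia genes had negative log2 fold changes, 4 of them with such a p, and all 6 interferon response genes likewise, 6 with such a p, but none passed an FDR of 0.05 in edgeR's quasi-likelihood test. Without hp708 replicate 1, 1 of the 6 microglia genes and 6 of the 6 interferon response genes were negative, with medians of 0.04 and -0.14 in place of -0.24 and -0.70. Without surrogate variables, and with all libraries, these medians were -0.09 and -0.27.

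Choroid plexus markers spread most, from 1.89 to 5.99 in hpCTL and from 2.88 to 6.58 in hp708. Their correlation with the profile of the CA1 markers was -0.252 over 8 libraries, and that with Ccn3 was -0.021, and these were -0.383 and -0.193 without hp708 replicate 1. Thalamus markers correlated with that profile at -0.533 and granule cell markers of the dentate gyrus at -0.454, and at -0.505 and -0.413 without hp708 replicate 1.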
